A study of Homo sapiens with 4 samples.

Results

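The Rag GTPase genes RRAGA, RRAGB, RRAGC and RRAGD, the folliculin gene FLCN and the genes of its partners, FNIP1 and FNIP2, were followed in HK-2 cells with and without induction of the PRCC-TFE3 fusion. These 7 genes were chosen by name from the pathway, with earlier results of these data known, and each value is the sum of the estimated reads of all transcripts of a gene. They are 7 of 33886 gene symbols in the deposited tables, and all 7 were among the 13542 genes with enough reads to be tested. HK-2 cells are an immortalised human line derived from the renal proximal tubule. All cultures carried a Tet-On construct encoding HA-tagged PRCC-TFE3, a chimeric transcription factor found in a form of renal cell carcinoma, so the transgene was present in both groups. The Doxy(+) group received 0.2 microg/ml doxycycline for 24 h and the Doxy(-) group was kept without it, and polyadenylated RNA of 2 libraries per group was sequenced. No HK-2 culture lacking the transgene was analysed here, so an action of doxycycline and an action of PRCC-TFE3 cannot be told apart. The labels do not say whether the libraries of a group came from separate cultures or from 1 clone, so the p-values measure only the spread between these libraries, which may be technical.

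RagA or RagB pairs with RagC or RagD to form a heterodimer that the Ragulator complex holds on the lysosome. When amino acids are plentiful the heterodimer brings the kinase complex mTORC1 to the lysosomal surface. Folliculin, bound to FNIP1 or FNIP2, acts on RagC and RagD to promote their GDP-bound form, and this step is needed for mTORC1 to phosphorylate TFEB and TFE3 and keep them in the cytosol. FLCN is the gene mutated in Birt-Hogg-Dubé syndrome, in which renal tumours form, and RRAGC, RRAGD, FLCN, FNIP1 and FNIP2 are known as target genes of TFE3 and its relatives TFEB and MITF, the MiT/TFE factors.

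The libraries held 14042545 to 16618401 estimated reads, and TFE3, whose transcripts collect any reads of the fusion's TFE3 part, checked the labels. TFE3 measured 66.9 and 69.0 CPM (estimated reads per 1000000, with library totals adjusted by TMM) without doxycycline, against 367 and 322 CPM with it. Its log2 fold change, here and throughout Doxy(+) over Doxy(-), was 2.34 (SE 0.0719, adjusted p = 4.37e-05 by edgeR's quasi-likelihood test). PRCC measured 50.2 and 47.2 CPM without doxycycline, against 47.7 and 60.1 CPM with it, a log2 fold change of 0.15 (adjusted p = 0.412) whose sign turned with limma on TPM, with length-scaled counts and without the second Doxy(+) library. Of 11 proximal tubule markers, 5 exceeded 1 CPM in every library, with PAX8 the highest, while the defining transcripts LRP2, AQP1 and ANPEP were at or near 0. The summed CPM of that list was 816 and 833 in Doxy(-) against 961 and 994 in Doxy(+), and the summed CPM of 5 epithelial markers was 1389 and 1372 against 1108 and 1114. The part of these shifts in the results was not tested. In a bulk sample, fewer cells that express a gene and less RNA per cell cannot be told apart. Of the epithelial markers, CDH1 stayed under 1 CPM in every library. Fibroblast markers summed to 26.1 and 22.0 CPM in Doxy(-) and 19.4 and 18.0 CPM in Doxy(+). COL1A1 was the highest of them, at 22.3 and 20.2 CPM, against 16.7 and 15.5 CPM. Markers of endothelium summed to at most 0.607 CPM, and of the 3 leukocyte markers PTPRC stayed under 1 CPM and CD3E was at 0. CD68, which lysosomes of other cells also carry, had 144 and 149 CPM in Doxy(-), against 190 and 189 CPM in Doxy(+).

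Of the 7 genes, 6 rose in Doxy(+) at an adjusted p under 0.05 and none fell. Over all 13542 genes tested, 9.81% were higher and 9.59% were lower at that threshold. RRAGD rose the most, 3.74-fold, followed by FNIP2 at 3.03-fold, RRAGC at 2.39-fold, FLCN at 1.98-fold, FNIP1 at 1.64-fold and RRAGB at 1.52-fold, all as ratios of mean CPM. RRAGA, the only one of the 7 that did not pass, had a ratio of 1.05. RRAGD, FNIP2 and RRAGC also passed the second limit, a log2 fold change over 1, which 1.50% of all genes tested passed together with the adjusted p in the upward direction and 0.473% in the downward direction. The median log2 fold change of the 7 genes was 0.98, beside 0.00 for all genes tested.

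**Figure D1:**
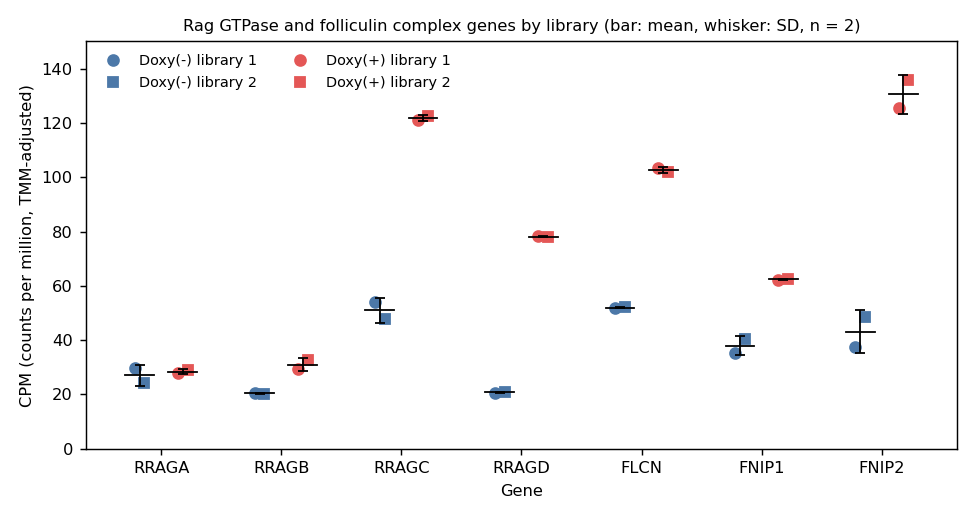
Level of each gene in CPM in each library (circles and squares are libraries 1 and 2 of a group, blue without and red with doxycycline, and horizontal bars are group means). The groups are apart for every gene but RRAGA, whose Doxy(+) libraries at 27.7 and 29.0 CPM lie between the Doxy(-) libraries at 24.4 and 29.6 CPM. Of all genes tested, 31.1% had both Doxy(+) libraries above both Doxy(-) libraries.

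RRAGA and RRAGB encode the paralogs of the first position of the heterodimer, and the 95% intervals of their changes did not overlap. RRAGA (ENSG00000155876.6, chr9:19049427-19051025, plus strand, hg38) is a gene of 1 exon. It had 29.6 and 24.4 CPM in Doxy(-) and 27.7 and 29.0 CPM in Doxy(+), so the groups overlapped. Its log2 fold change was 0.07 (SE 0.108, 95% confidence interval -0.19 to 0.34, adjusted p = 0.685), and without the second Doxy(-) library its sign turned, to -0.06. The interval leaves room for a modest change in either direction. Its annotated pseudogene RRAGAP1 was listed at 0 reads in all 4 libraries.

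RRAGB (ENSG00000083750.13, chrX:55717749-55758774, plus strand) had 20.5 and 20.3 CPM in Doxy(-) and 29.2 and 32.8 CPM in Doxy(+). Both Doxy(+) libraries lay above both Doxy(-) libraries, as they did for 31.1% of all genes tested. The log2 fold change was 0.61 (SE 0.088, 95% interval 0.39 to 0.82, adjusted p = 0.00623), the smallest of the 6 that passed.

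RRAGC and RRAGD encode the paralogs of the other position, on which folliculin acts. RRAGC (ENSG00000116954.8, chr1:38838198-38859772, minus strand) had 54.1 and 47.8 CPM in Doxy(-) and 121 and 123 CPM in Doxy(+). The difference between the group means was many times the difference between libraries of a group, and the log2 fold change was 1.26 (SE 0.0676, 95% interval 1.10 to 1.43, adjusted p = 0.000224).

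RRAGD (ENSG00000025039.15, chr6:89364616-89412273, minus strand) had 20.7 and 21.0 CPM in Doxy(-) and 78.4 and 77.9 CPM in Doxy(+). The libraries of each group were within 1 CPM of each other, and the log2 fold change of 1.90 had a standard error of 0.0568 (95% interval 1.77 to 2.04, adjusted p = 4.11e-05). In estimated reads this was a step from 267 and 309 to 1009 and 1046. Of all genes tested, 99.5% had a lower log2 fold change than RRAGD.

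FLCN (ENSG00000154803.13, chr17:17212212-17237188, minus strand) encodes folliculin. It had 51.8 and 52.1 CPM in Doxy(-) and 103 and 102 CPM in Doxy(+), a near doubling with little spread in either group. The log2 fold change was 0.98 (SE 0.0484, 95% interval 0.87 to 1.10, adjusted p = 0.000182), just under the limit of 1, and with limma on log2(TPM + 0.1) it was 1.001 and passed. Its exons overlap those of ENSG00000264187, an annotated gene on the same strand, which had 1.89 to 2.37 CPM over the 4 libraries, and the division of reads between these genes is uncertain.

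The genes of the folliculin partners both rose. FNIP1 (ENSG00000217128.13, chr5:131641714-131797017, minus strand) had 35.4 and 40.5 CPM in Doxy(-) and 62.2 and 62.5 CPM in Doxy(+), a log2 fold change of 0.71 (SE 0.0751, 95% interval 0.53 to 0.90, adjusted p = 0.00203). FNIP2 (ENSG00000052795.13, chr4:158769026-158908050, plus strand) had 37.6 and 48.6 CPM in Doxy(-) and 125 and 136 CPM in Doxy(+). Its Doxy(-) libraries differed more than those of the other genes in CPM, yet both Doxy(+) libraries were far above them, and the log2 fold change was 1.59 (SE 0.115, 95% interval 1.31 to 1.87, adjusted p = 0.000561). The 95% intervals of FNIP1 and FNIP2 did not overlap, nor did those of RRAGC and RRAGD.

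**Figure D2:**
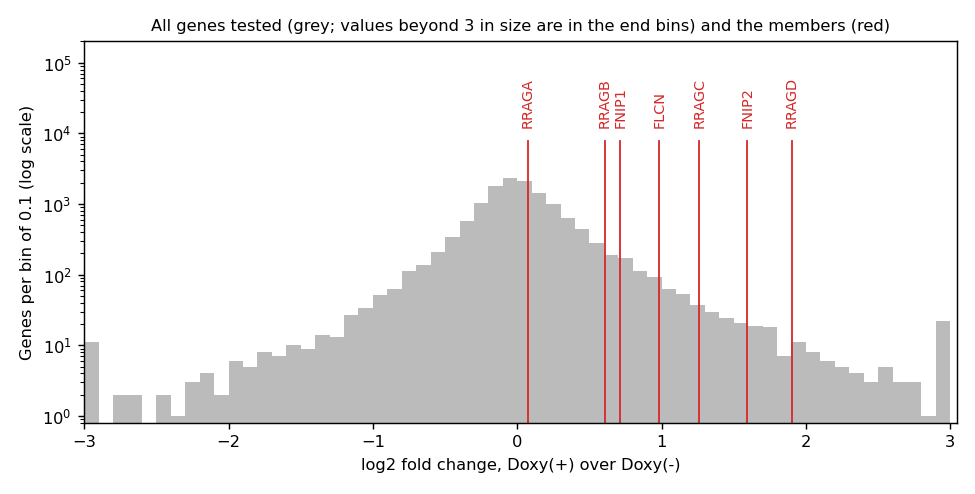
Histogram of the log2 fold change, Doxy(+) over Doxy(-), of the 13542 genes tested, in bins of 0.1 with the number of genes on a log scale, and the 7 genes as red lines. RRAGA lies at 0.07, near the median of all genes, and the other members lie between 0.61 and 1.90, in the upper part of the distribution.

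The sequence upstream of the start is shown because 3 of the 5 genes with a window hold the 6-letter E-box CACGTG in it. CACGTG is the core of the sequence bound by MiT/TFE factors. All 5 genes rose, those without CACGTG included, so a link between the motif and the rise was not tested. Promoter windows of 300 bases, from 250 before to 50 after the start, were taken from RefSeq (GRCh38.p14), in which 5 of the 7 genes were matched. RRAGA and RRAGD were not matched. The 250 bases before the start are printed 5′ to 3′ on the strand of the gene, with CACGTG in capitals, for RRAGC (chr1:38859773-38860022, minus strand), FNIP1 (chr5:131797018-131797267, minus strand), RRAGB (chrX:55717499-55717748, plus strand), FLCN (chr17:17237169-17237418, minus strand) and the first of a pair of FNIP2 windows (chr4:158768776-158769025, plus strand).
RRAGC: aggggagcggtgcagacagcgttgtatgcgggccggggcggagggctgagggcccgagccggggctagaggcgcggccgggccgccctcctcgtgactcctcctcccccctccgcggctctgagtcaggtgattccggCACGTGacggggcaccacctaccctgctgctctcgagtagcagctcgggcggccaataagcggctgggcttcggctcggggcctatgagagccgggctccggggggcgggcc
FNIP1: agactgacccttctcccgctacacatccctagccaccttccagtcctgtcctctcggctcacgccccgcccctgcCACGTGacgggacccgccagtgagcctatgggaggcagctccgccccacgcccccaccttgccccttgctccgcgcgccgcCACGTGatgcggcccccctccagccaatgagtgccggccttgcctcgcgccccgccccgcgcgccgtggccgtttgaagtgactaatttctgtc
RRAGB: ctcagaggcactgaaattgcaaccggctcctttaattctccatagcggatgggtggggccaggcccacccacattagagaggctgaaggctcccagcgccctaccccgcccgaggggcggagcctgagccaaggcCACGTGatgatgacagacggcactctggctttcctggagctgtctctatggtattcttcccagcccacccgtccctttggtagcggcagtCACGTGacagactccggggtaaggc
FLCN: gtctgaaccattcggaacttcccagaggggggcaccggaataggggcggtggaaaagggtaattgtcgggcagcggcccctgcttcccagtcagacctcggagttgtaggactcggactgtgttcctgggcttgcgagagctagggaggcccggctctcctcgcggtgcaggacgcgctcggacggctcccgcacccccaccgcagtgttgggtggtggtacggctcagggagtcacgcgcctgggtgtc
FNIP2: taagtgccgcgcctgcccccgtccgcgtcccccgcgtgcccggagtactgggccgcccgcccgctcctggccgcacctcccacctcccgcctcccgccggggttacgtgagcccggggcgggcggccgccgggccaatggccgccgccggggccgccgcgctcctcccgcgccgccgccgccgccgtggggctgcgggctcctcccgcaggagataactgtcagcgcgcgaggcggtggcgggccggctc

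Counted from the start, with the first transcribed base as 1, CACGTG began at -112 in RRAGC, at -175 and -94 in FNIP1, and at -115, -25 and 8 in RRAGB. The RRAGB copy at 8 (chrX:55717756-55717761) lies past the printed stretch, in the context gcagatgccCACGTGatcctggcc. The longer palindrome TCACGTGA, known as the CLEAR type of E-box and holding CACGTG within it, occurred in RRAGB alone, at the copy that begins at -25. FLCN and the first FNIP2 window held neither motif, and the related TCATGTGA occurred only in the other FNIP2 window. CACGTG and TCACGTGA are palindromes, so a match on one strand is a match on both, whereas TCATGTGA is not, and its match in the other FNIP2 window lies on the strand opposite to the gene. Of 35116 RefSeq windows of the same length, 7.26% held CACGTG, 0.980% held TCACGTGA, 1.0% held TCATGTGA, 0.664% held CACGTG at least 2 times and 0.0940% held it at least 3 times. These shares are per window, whereas the 3 of 5 above is per gene. A match gives letters only, and binding at these windows was not measured here.

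Levels were compared between genes in TPM, a scale that divides by transcript length. In Doxy(-), RRAGC had 30.0 ± 5.83 TPM (SD, n = 2), FLCN 25.8 ± 0.349 TPM and RRAGA 24.9 ± 3.55 TPM, and neighbours among these 3 overlapped between libraries. RRAGB followed at 20.2 ± 0.958 TPM, FNIP2 at 18.6 ± 0.353 TPM, RRAGD at 12.5 ± 0.343 TPM and FNIP1 at 10.5 ± 0.734 TPM, each clear of the next. In Doxy(+), RRAGC was again the highest at 68.5 ± 0.902 TPM, followed by FNIP2 at 55.9 ± 0.381 TPM. FLCN at 51.7 ± 0.219 TPM and RRAGD at 50.4 ± 2.43 TPM overlapped between libraries. RRAGB had 30.8 ± 1.14 TPM, RRAGA 27.0 ± 0.782 TPM and FNIP1 18.9 ± 0.272 TPM. RRAGA, level with FLCN in Doxy(-) on this scale, was below it in both Doxy(+) libraries.

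The place of RRAGD in this order depended on a short transcript, RRAGD-203, of 892 nucleotides and without a defined coding sequence, which weighs heavily on a scale per length. On annotated protein-coding transcripts alone, RRAGD had 5.53 ± 0.085 TPM in Doxy(-), the lowest of the 7 genes, and 21.4 ± 0.00177 TPM in Doxy(+), above FNIP1 only. RRAGA was above FLCN in Doxy(-) on that scale, at 24.9 against 18.6 TPM, and below it in Doxy(+), at 27.0 against 39.5 TPM. The place of RRAGB changed as well. FNIP2 was above RRAGB in Doxy(-), at 16.3 against 14.8 TPM, and RRAGA was above RRAGB in Doxy(+), at 27.0 against 23.3 TPM. RRAGC remained the highest on that scale, at 26.7 ± 1.66 TPM in Doxy(-), overlapping RRAGA, and at 67.7 ± 0.0158 TPM in Doxy(+).

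Within each paralog pair, the member with the larger change made up more of the pair in Doxy(+), as it must by arithmetic. The shares and ratios below restate the unequal changes of the genes in TPM and are not a separate result. RRAGD made up 27.2% and 32.2% of the summed TPM of RRAGC and RRAGD in Doxy(-), and 43.5% and 41.3% in Doxy(+). On protein-coding transcripts alone the RRAGD share was 16.4% and 18.0% in Doxy(-) and 24.0% in both Doxy(+) libraries. RRAGC therefore stayed the more abundant of the pair in every library on both scales. RRAGB made up 43.3% and 46.6% of the summed TPM of RRAGA and RRAGB in Doxy(-), and 53.2% and 53.5% in Doxy(+). On protein-coding transcripts alone the RRAGB share came to 35.0% and 40.0% without doxycycline, against 44.8% and 47.8% with it, and there RRAGA stayed the more abundant. FNIP2 made up 65.5% and 62.6% of the summed TPM of FNIP1 and FNIP2 in Doxy(-), and 74.9% and 74.7% in Doxy(+). Much of the FNIP2 level in TPM came from FNIP2-203, a protein-coding transcript of 724 nucleotides, with 9.66 and 7.22 TPM in Doxy(-) and 23.7 and 20.3 TPM in Doxy(+). The long transcript FNIP2-201 alone had 6.63 and 9.01 TPM in Doxy(-), below FNIP1 at 9.94 and 11.0 TPM, and 23.8 and 25.8 TPM in Doxy(+), above FNIP1 at 18.7 and 19.1 TPM.

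The log2 TPM ratio of RRAGD to RRAGC was higher in Doxy(+) by 0.80 (0.60 on protein-coding transcripts), that of FNIP2 to FNIP1 by 0.73 and that of RRAGB to RRAGA by 0.49. A further ratio, chosen after the values were seen, set RRAGC and RRAGD together against RRAGA and RRAGB. The ratio stood at 0.970 and 0.910 in Doxy(-), close to equal TPM on the sides of the heterodimer, and 2.13 and 1.99 in Doxy(+), a log2 difference of 1.13. On protein-coding transcripts alone it was 0.789 and 0.833, against 1.86 and 1.69, with the same difference of 1.13. The summed TPM of RRAGC and RRAGD went from 46.9 and 38.2 in Doxy(-) to 120 and 118 in Doxy(+), whereas that of RRAGA and RRAGB went from 48.3 and 42.0 to 56.4 and 59.1. An exact two-sided permutation test gave p = 0.333 for each of the 4 ratios, which is the smallest p that 2 libraries against 2 allow, so it cannot reach the threshold. These are values of mRNA, and the proteins were not measured here.

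**Figure D3:**
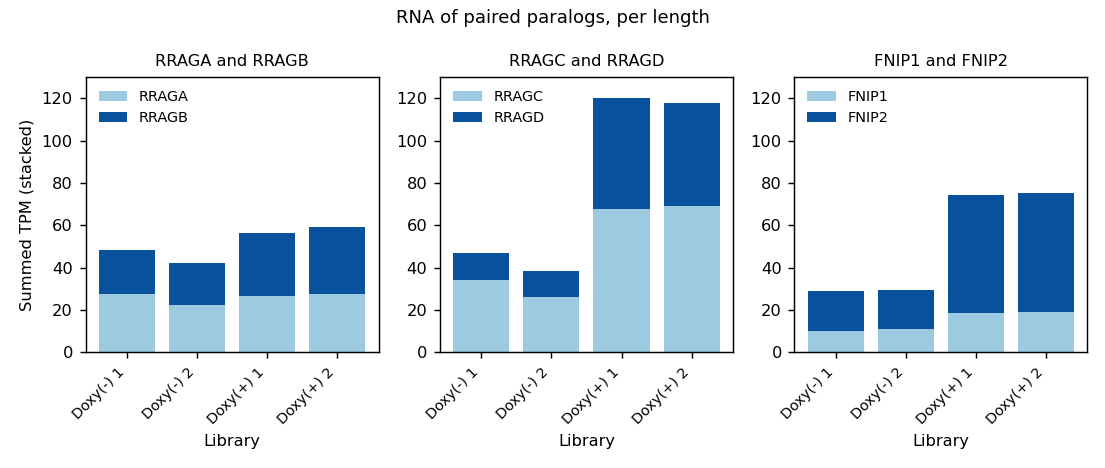
Summed TPM of the members of each paralog pair in each library. In the RRAGA and RRAGB pair the order of the genes turned between the groups on this scale, though not on protein-coding transcripts alone. RRAGC stayed above RRAGD and FNIP2 stayed above FNIP1 in all 4 libraries. FNIP2-201 alone was below the summed FNIP1 transcripts in Doxy(-), though above each of them taken singly.

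The annotation lists 34 transcripts of the 7 genes in the tables, of which 21 had enough reads to be tested one by one. In edgeR's fit over 45331 transcripts, in which 0.0110% were higher and 0.00662% were lower at an adjusted p under 0.05, none of the 21 passed. With the fold change limit as well, 0.00882% of all transcripts were higher and 0.00441% were lower. At an unadjusted p under 0.05, 14 were higher and 0 lower, beside 4.87% and 4.68% of all transcripts tested. The 14 include ENST00000512986 of FNIP2, which had almost no reads without doxycycline and so entered the test by its Doxy(+) reads. DESeq2 called 11 higher and 0 lower, beside 3.08% and 2.80%, and limma called 0 of the 21 and 0 of all transcripts. None of the 14 or the 11 was from RRAGA, so all came from genes that had already passed as a whole. Reads are divided among overlapping transcripts of a gene, so these counts are not a separate result. The biological coefficient of variation was 61.9% for transcripts against 6.47% for genes over all features tested. The SE of RRAGC-201 was 0.0678, close to the 0.0676 of RRAGC. Other leading transcripts had a larger SE than their gene. It was 0.0619 for FLCN-201 against 0.0484 for FLCN, 0.184 for FNIP2-201 against 0.115 for FNIP2, and 0.132 for RRAGB-202 against 0.088 for RRAGB.

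RRAGA had 1 transcript, and RRAGC-201 held 94.5% to 99.8% of RRAGC reads. FLCN-201 held 82.1% to 85.6% of FLCN reads and had a log2 fold change of 1.01 (SE 0.0619, adjusted p = 0.121), much like the gene. FNIP2-201 held 84.0% to 88.8% of FNIP2 reads, with a log2 fold change of 1.63, and FNIP2-203 had one of 1.35. These genes thus had 1 leading transcript in every library.

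RRAGD, RRAGB and FNIP1 spread their reads over several transcripts. RRAGD-201 held 37.0% and 34.2% of RRAGD reads in Doxy(-) and 45.6% and 39.1% in Doxy(+), with a log2 fold change of 2.16 (adjusted p = 0.135). RRAGD-202 held 43.5% and 48.0% in Doxy(-) and 33.3% and 41.9% in Doxy(+), with a log2 fold change of 1.63. RRAGD-203 held 17.7% to 21.1% over the 4 libraries, with a log2 fold change of 2.02. All 3 were thus higher in Doxy(+) as measured.

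FNIP1-203 held 34.0% and 29.1% of FNIP1 reads in Doxy(-) and 41.3% and 44.6% in Doxy(+), with a log2 fold change of 1.18, and FNIP1-202 held the rest, with one of 0.46. Of the 11 transcripts in the plot of shares that are not alone in their gene, 6 had shares that did not overlap between the groups, the FNIP1 pair, RRAGD-201, RRAGD-202, RRAGB-202 and RRAGC-201, beside 32.7% of all transcripts with at least 10% of their gene. Shares within a gene depend on each other. FNIP1-202 and FNIP1-203 together make up the whole of FNIP1, so their separations are a single observation. RRAGB-202 held 66.4% to 73.4% of RRAGB reads with a log2 fold change of 0.72, and RRAGB-201 had one of 0.38.

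**Figure D4:**
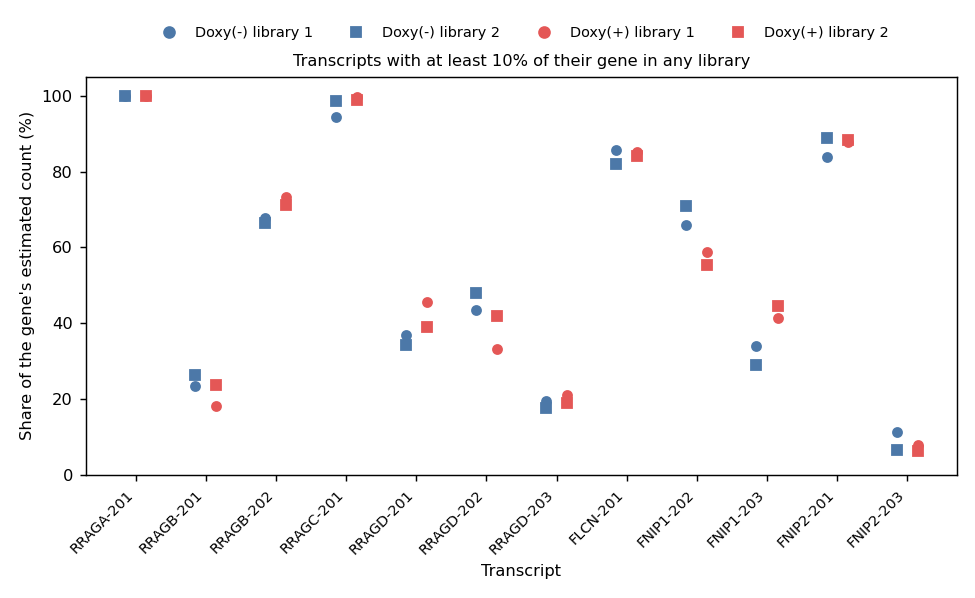
Share of the estimated reads of its gene held by each transcript with at least 10% in any library, by library (circles and squares are libraries 1 and 2, blue without and red with doxycycline). The groups lie apart for FNIP1-202 and FNIP1-203, which together make up the whole gene, with FNIP1-203 at 29.1% and 34.0% in Doxy(-) and 41.3% and 44.6% in Doxy(+). Shares did not overlap between the groups for 32.7% of all transcripts with at least 10% of their gene.

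The remaining genes around the Rag GTPases were described by the same test. Of 51 genes listed in 11 groups, 50 were found and 46 were tested, and 7 (TFE3 included) rose and 1 fell at an adjusted p under 0.05, beside 9.81% and 9.59% of all genes tested. The median log2 fold change of the 46 genes was 0.03. DESeq2 called 5 higher and 1 lower, beside 5.69% and 5.72% of all genes, and limma on log2(TPM + 1) called 4 higher and 0 lower, beside 4.76% and 2.47%. The calls of LAMTOR1 and TBC1D7 were lost with DESeq2, and those of LAMTOR1, TBC1D7, TSC1 and PRKAG2 were lost with limma and with length-scaled counts.

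Ragulator, the scaffold that holds the Rag heterodimer on the lysosome, had 3 of 5 genes higher and a median log2 fold change of 0.30. LAMTOR3 had 36.3 and 38.3 CPM in Doxy(-) and 55.5 and 53.0 CPM in Doxy(+), a log2 fold change of 0.54 (SE 0.0615, adjusted p = 0.00269). LAMTOR4 had 36.1 and 33.3 CPM in Doxy(-) and 53.3 and 49.1 CPM in Doxy(+), a log2 fold change of 0.56 (adjusted p = 0.00426), and its exons overlap those of TRAPPC14 on the other strand. LAMTOR1, which anchors the complex in the membrane, had a log2 fold change of 0.30 (adjusted p = 0.0233), and this call was lost without either Doxy(+) library (adjusted p = 0.119 without the first and 0.0906 without the second). LAMTOR5, at 0.20 (adjusted p = 0.0668), and LAMTOR2, at 0.02 (adjusted p = 0.915), did not pass.

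GATOR1, which switches off RagA and RagB, its antagonist GATOR2, its anchor KICSTOR, the amino acid sensors and the mTORC1 subunits gave 0 calls in edgeR among 23 genes tested, and 0 with DESeq2 and with limma. Their log2 fold changes ran from -0.36 to 0.51 with a median of 0.01. At an unadjusted p under 0.05, 1 was higher, DEPTOR at 0.51, and 1 was lower, LARS1 at -0.24, both named after their values were seen, beside 16.9% and 16.6% of all genes tested. Of the ubiquitin ligases that act on Rag or GATOR proteins 2 were tested and 0 passed in edgeR, DESeq2 or limma. At an unadjusted p under 0.05, 1 of them was higher, KLHL22, also named after its values were seen, with a log2 fold change of 1.19 (adjusted p = 0.0624).

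In the group of TSC and RHEB, which sets mTORC1 activity at the lysosome in response to growth factors, TSC1 rose from 60.4 and 56.8 CPM to 78.3 and 75.5 CPM, a log2 fold change of 0.39 (SE 0.0574, adjusted p = 0.00629). Without the first Doxy(+) library the adjusted p of TSC1 was 0.0503. TBC1D7, the third subunit of that complex, rose by 0.49 on the log2 scale (adjusted p = 0.0312), a call lost without the second Doxy(-) library (adjusted p = 0.0779) and without the first Doxy(+) library (adjusted p = 0.141). TSC2 had a log2 fold change of -0.16 and RHEB one of -0.02, and neither passed.

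AMPK, the energy-sensing kinase to which folliculin and its partners bind, had 0 of 6 tested subunits higher and 1 lower. The exception was the gamma subunit gene PRKAG2, which had 62.3 and 63.4 CPM in Doxy(-) and 43.4 and 39.3 CPM in Doxy(+), a log2 fold change of -0.60 (SE 0.0664, adjusted p = 0.00239). With limma on log2(TPM + 1) its adjusted p was 0.0958. Among the DENN-domain relatives of folliculin, SMCR8 rose from 42.7 and 43.7 CPM to 68.0 and 61.2 CPM, a log2 fold change of 0.58 (SE 0.0696, adjusted p = 0.00319), while its partners C9orf72, at 0.44 (adjusted p = 0.178), and WDR41, at 0.16 (adjusted p = 0.243), did not pass. Exons of SMCR8 overlap those of SHMT1 on the other strand. Of the other MiT/TFE genes, MITF, at -0.32 (adjusted p = 0.261), and TFEB, at 0.21 (adjusted p = 0.662), did not pass.

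**Figure D5:**
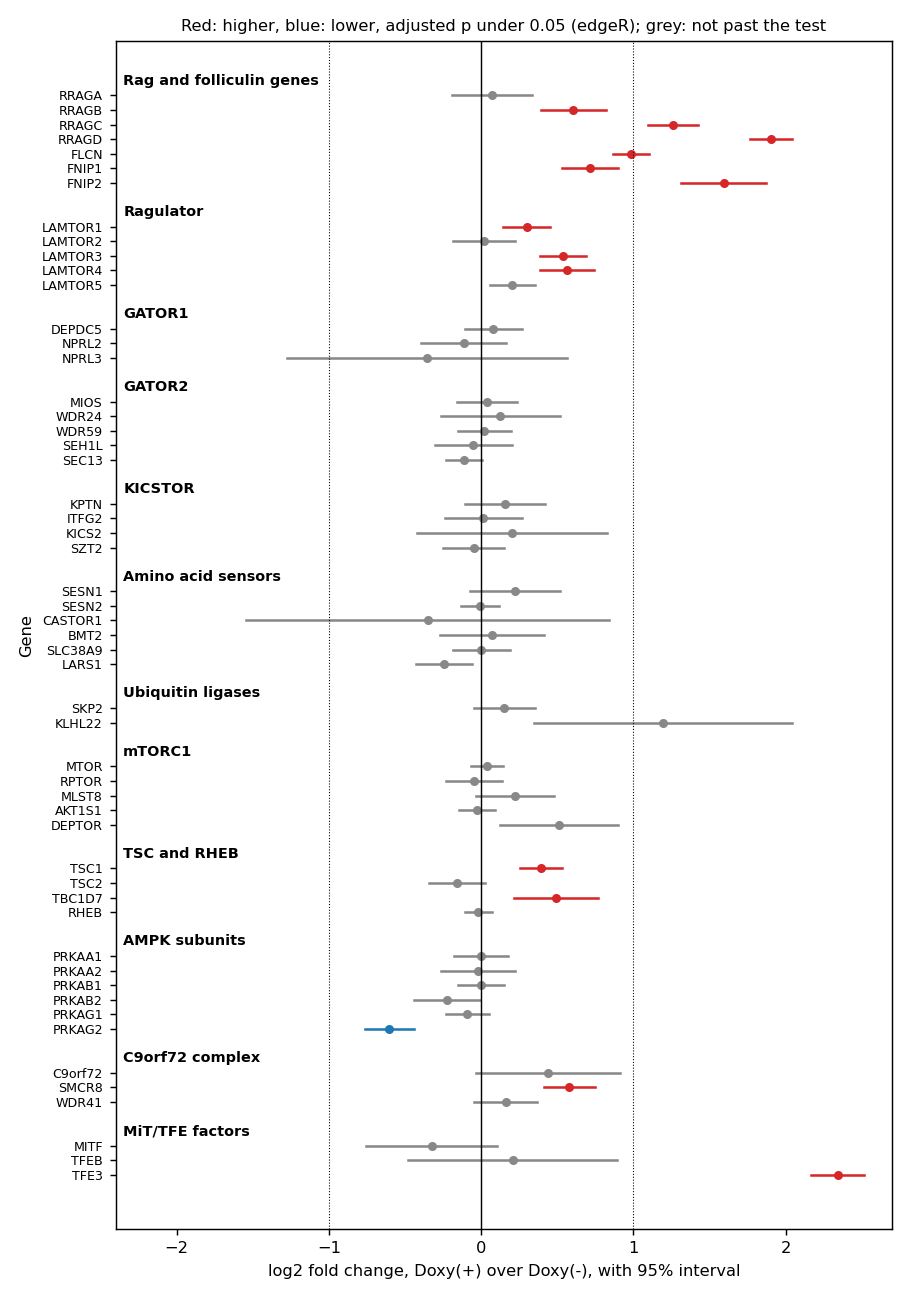
Log2 fold change, Doxy(+) over Doxy(-), of the 7 genes and of the tested genes of the surrounding pathway by group, with bars for the 95% confidence interval. RRAGD, FNIP2 and RRAGC lie furthest to the right after TFE3, and most genes of GATOR1, GATOR2, KICSTOR and mTORC1 lie near 0.

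The genes whose pattern over the 4 libraries was nearest to that of each member past both limits were found by Euclidean distance on log2 CPM less the gene's own mean, among 9608 genes whose mean reached 10 CPM. For RRAGD they were TMEM144 (distance 0.123), PPIF (0.134), GREB1 (0.189), TNFRSF14 (0.243) and PLA1A (0.282). For RRAGC they were SULT1C2 (0.0518), PRSS8 (0.0588), SLC2A3 (0.0627), DDIT3 (0.0724) and LYSET (0.0959). For FNIP2 they were GREB1 (0.212), PPARGC1A (0.224), PLA1A (0.277), ALDH5A1 (0.281) and PTGDS (0.285). The nearest gene to RRAGD, TMEM144, had 13.2 and 13.6 CPM in Doxy(-) and 48.5 and 45.2 CPM in Doxy(+). With 4 libraries in 2 groups, likeness here is mostly a matter of a similar fold change.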

How the data were processed

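The deposited tables give an estimated count and a TPM per Ensembl transcript for each of the 4 libraries. The study's methods name Trim Galore 0.6.6, cutadapt 2.5, STAR 2.7.9a, the hg38 build, RSEM, an annotation from the UCSC hg38 build, DESeq2 and a stranded kit, while the column layout of the deposited files is that of kallisto. Which program and version wrote these tables, with which Ensembl release, and whether counting used strand are not given in the sources used here. The deposited expected counts, estimated by the authors' quantifier, are not normalized. The deposited TPM values were scaled by the authors' quantifier for transcript length and depth.

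Of 180253 identifiers, 150691 (83.6%) matched GENCODE release 44, and those that did not match held 9.66% to 9.89% of a library and stayed out of totals and tests. Estimated counts were summed per gene symbol, rounded, and tested with edgeR 4.0.16 (glmQLFit and glmQLFTest, R 4.3.3) after TMM scaling and filterByExpr, with group as the only term. P-values were adjusted by Benjamini-Hochberg over all genes tested, or over all transcripts tested. The limits were an adjusted p under 0.05 and, for the second limit, a log2 fold change over 1 in size. Alternatives used DESeq2 1.42.0 and limma 3.58.1, other filters and scalings, and leaving out each library. The edgeR fit was tested on simulated counts. The simulated spread was the same for genes and transcripts, so that test does not cover the larger spread of the transcripts here.

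Named genes are the 7 members, TFE3, PRCC, up to 4 called genes per pathway list, transcripts with at least 10% of their gene, and the 5 nearest genes per member past both limits. Other list genes and minor transcripts named in the text lie outside this rule and were chosen after their values were seen. The members and lists were chosen with earlier results of these data known. Symbols, coordinates and transcript types come from GENCODE, and promoters from RefSeq.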

Additional observations from a re-analysis of the deposited data

How the results depend on the processing

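Of 478 values recomputed under an alternative, 422 kept direction and side of the threshold or moved little, 19 fell short of the threshold, 9 passed it anew, 22 moved and 6 reversed. The 6 members that rose did so at an adjusted p under 0.05 under every alternative run, with log2 fold changes of 0.52 to 0.68 for RRAGB, 1.16 to 1.35 for RRAGC, 1.89 to 2.0 for RRAGD, 0.967 to 1.001 for FLCN, 0.62 to 0.85 for FNIP1 and 1.42 to 1.79 for FNIP2. With no fold change limit, 6 members passed in place of 3. RRAGA ran from -0.0646, without the second Doxy(-) library, to 0.21 when each library was left out, and RRAGA-201 from -0.0507 to 0.22. PRCC was -0.15 with limma on log2(TPM + 1) and on log2(TPM + 0.1), -0.18 with length-scaled counts and -0.0294 (without the second Doxy(+) library) to 0.30 with a library left out.

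Over all genes, 203 were higher and 64 lower past both limits. These counts were 129 and 33 with limma on log2(TPM + 1), 127 and 34 at an adjusted p under 0.01, and 1328 and 1299 with no fold change limit. The count of lower genes was 38 with limma on log2(TPM + 0.1) and 99 with no low-count filter. With a library left out, the counts were 151 to 214 higher and 68 to 90 lower. Of the pathway genes, 7 higher became 4 with either limma setting and with length-scaled counts, and 4 to 8 with a library left out. The 1 lower became 0 in those 3 settings, 2 with no low-count filter, and 1 to 2 with a library left out. Without the first Doxy(+) library, 4 were higher. Member transcripts called higher went from 0 to 11 with DESeq2. The log2 TPM ratio difference of RRAGD to RRAGC was 0.60 on protein-coding transcripts, and that of FNIP2 to FNIP1 was 0.89 on CPM per kilobase. The cause of these shifts was not tested.

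The labels number the libraries 1 and 2 in each group. Deviations of same-numbered libraries had a correlation of -0.00914 over 13542 genes, so the numbers are not shown to pair the libraries. With the replicate block, 204 genes were higher and 67 lower, 6 members rose (RRAGD by 1.90 on the log2 scale, RRAGA by 0.08 without passing), and 8 pathway genes were higher, and the block changed no member call. The smallest member counts were 264 to 440 reads for RRAGB, and intervals rest on 2 libraries per group.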

Other observations

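Some minor transcripts of the folliculin genes, singled out after their values were seen, had unequal reads in the groups, none of them past the test. The FNIP2 transcript ENST00000512986 had 0 and 0.00135 estimated reads without doxycycline, against 29.1 and 52.4 with it (adjusted p = 0.276 by edgeR). FLCN-203 had 4.81 and 13.97 estimated reads without doxycycline, against 50.9 and 44.5 with it, a log2 fold change of 2.44 (adjusted p = 0.368 by edgeR). FLCN-204 had 27.0 and 21.7 estimated reads in Doxy(-), against 7.53 and 11.4 in Doxy(+), a log2 fold change of -1.29 (95% interval -2.85 to 0.26, adjusted p = 0.622), although FLCN itself rose. FLCN-204 is annotated as retaining an intron, and the other tested FLCN transcripts of that class went both ways. FLCN-202 had a log2 fold change of 1.50, FLCN-207 one of 0.93 and FLCN-209 one of -0.77. FNIP2-202 had 16.4 and 28.1 estimated reads in Doxy(-), against 18.7 and 20.3 in Doxy(+) (adjusted p = 0.998), while FNIP2 rose.

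Transcripts annotated as retaining an intron held 14.5% ± 1.24 of FLCN reads in Doxy(-) and 11.8% ± 1.18 in Doxy(+) (SD, n = 2), and 3.67% ± 0.384 of FNIP2 reads in Doxy(-) and 1.14% ± 0.0329 in Doxy(+). These differences were not set beside those of all genes. RRAGC-203, of 745 nucleotides, held 33.7 estimated reads in the first Doxy(-) library and close to none in the other libraries, which is part of the spread of RRAGC in TPM. These estimates come from dividing reads between overlapping transcripts and carry that uncertainty.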
